A study of Mus musculus with 8 samples.

Results

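Chromatin accessibility was examined at 9 genes for enzymes that modify the proteins of the circadian clock: the kinases Csnk1d, Csnk1e, Csnk2a1 and Gsk3b, the ubiquitin ligase genes Btrc, Fbxw11, Fbxl21 and Huwe1, and the deubiquitinase gene Usp2. The members were all regions of the deposited table that carry one of these gene names, 351 of 489637 regions, of which 137 held enough signal to be tested. The assay was ATAC-seq, where a transposase places sequencing adapters preferentially in accessible DNA, applied to nuclei of gastrocnemius, a calf muscle, from mice 6 months old. All 8 samples, each made from 2 muscles, had the genotype Cre+:iMSBmal1 fl/fl. The treatment label is Vehicle for 4 samples and Tamoxifen for the 4 iMSBmal1KO samples, so the knockout and the drug cannot be told apart. Bmal1, listed in the table as Arntl, encodes one of the transcription factors that drive the clock. The promoter that drives the Cre, the floxed exon, the sex of the mice and the time of day of collection are not given in the sources used here, and nothing there says that each sample came from a separate animal. The muscle holds several cell types, and in such bulk nuclei a change in the number of cells of a type and a change within its cells cannot be told apart.

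The clock is a transcription loop in which PER and CRY proteins shut off their own activators, and its pace depends on how long those proteins last. Casein kinases 1 delta and epsilon (Csnk1d, Csnk1e) phosphorylate PER proteins and mark them for the F-box proteins beta-TrCP (Btrc and Fbxw11), which recruit a ubiquitin ligase. FBXL21 acts on CRY proteins. Casein kinase 2 (catalytic subunit Csnk2a1) and glycogen synthase kinase 3 beta (Gsk3b) phosphorylate several clock proteins, HUWE1 is a HECT-type ligase described for REV-ERB alpha, and USP2 removes ubiquitin from clock proteins and is itself transcribed rhythmically in many tissues. Accessibility of a gene measures neither its mRNA nor the amount or activity of its enzyme.

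The starts of these genes lay in CpG-rich DNA. RefSeq promoter windows (build GRCm38.p6, 250 bases before to 50 after an annotated start) were matched for 7 of the 9 genes, Csnk2a1, Usp2, Fbxw11, Fbxl21, Csnk1e, Gsk3b and Huwe1, as 10 windows. They held 20 to 54 CpG dinucleotides, against a median of 7 over all 32851 windows, and 57.3% to 80.7% G and C, against a median of 52.7%. Shown are the 250 bases before the start of 4 genes: Csnk2a1, which had the smallest p among the gene sums, Gsk3b and Huwe1, whose signal lay mostly at 1 start, and Usp2, which has several starts. All 4 are on the plus strand, written 5′ to 3′, and CpG dinucleotides are in capitals. They lie at chr2:152226590-152226839 (Csnk2a1), chr16:38088751-38089000 (Gsk3b), chrX:151803032-151803281 (Huwe1) and chr9:44084670-44084919 (Usp2).
Csnk2a1: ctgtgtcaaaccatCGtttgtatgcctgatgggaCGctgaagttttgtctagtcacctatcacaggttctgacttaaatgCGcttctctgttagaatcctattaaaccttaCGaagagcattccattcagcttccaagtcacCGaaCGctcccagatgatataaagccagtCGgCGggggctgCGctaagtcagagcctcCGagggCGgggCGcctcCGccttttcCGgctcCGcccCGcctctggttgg
Gsk3b: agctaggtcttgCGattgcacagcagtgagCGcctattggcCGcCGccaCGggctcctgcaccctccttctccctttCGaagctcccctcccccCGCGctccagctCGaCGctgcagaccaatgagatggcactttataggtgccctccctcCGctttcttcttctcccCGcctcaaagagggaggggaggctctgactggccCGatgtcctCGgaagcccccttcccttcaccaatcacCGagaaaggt
Huwe1: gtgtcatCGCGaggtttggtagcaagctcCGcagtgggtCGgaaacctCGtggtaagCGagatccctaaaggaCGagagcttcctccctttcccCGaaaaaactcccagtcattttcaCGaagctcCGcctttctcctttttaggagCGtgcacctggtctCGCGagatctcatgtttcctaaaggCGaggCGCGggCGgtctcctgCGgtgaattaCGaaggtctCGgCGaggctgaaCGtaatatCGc
Usp2: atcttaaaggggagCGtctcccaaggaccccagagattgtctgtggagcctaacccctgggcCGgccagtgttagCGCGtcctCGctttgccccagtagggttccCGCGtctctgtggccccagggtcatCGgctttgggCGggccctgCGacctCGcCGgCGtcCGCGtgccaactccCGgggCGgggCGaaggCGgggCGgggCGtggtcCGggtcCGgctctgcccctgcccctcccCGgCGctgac
These stretches held 16 CpG dinucleotides for Csnk2a1, 15 for Gsk3b, 23 for Huwe1 and 25 for Usp2. The windows of Csnk2a1, Gsk3b and Fbxw11 lay wholly, over 300 bases, inside an accessible region of the same gene, as did 298 bases of the Huwe1 window. Regions of the gene covered 276 bases of the Fbxl21 window (3 regions) and 247 of the Usp2 window (2 regions). In Csnk1e 2 of 4 windows touched a region of the gene, over 236 and 185 bases. Clock motifs were searched as exact letters on both strands. The E-box CACGTG was in none of the 10 windows and in 7.15% of all windows, its variant CACGTT in none and in 4.68%, the ROR and REV-ERB core AGGTCA in none and in 16.3%, the D-box TTATGTAA in none and in 0.938%, its variant TTACGTAA in none and in 0.119%, and the cAMP response element TGACGTCA in none and in 1.79%. The core of that element, TGACG, which lies within the full element, was in 4 of the 10 windows (2 of Csnk1e, and those of Fbxl21 and Usp2) and in 20.8% of all windows. The Csnk1e windows overlap their neighbours, and the match in 2 of them is the same site, so the 10 windows are not separate promoters. In Usp2 the core TGACG began 4 bases before the start, at position -4. A match or its absence describes these letters in these windows only.

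Depth in read equivalents (M, megareads) ran from 4.31 M in Vehicle replicate 4 to 29.5 M in iMSBmal1KO replicate 1, and the member regions together held 3318 reads in the former and 31005 in the latter. Vehicle replicate 4 also had the highest mitochondrial share of the signal in the deposited regions, 16.5%, followed by Vehicle replicate 3 with 5.51%, against 1.11% to 3.31% elsewhere. The summed signal of all 9 genes was lowest in Vehicle replicate 4, as it was for 44.5% of all tested genes, so the sum and the main start of each gene are given also without that library. All 8 listed muscle fibre markers (Ckm, Acta1, Myh4 and others) were in the table, with a summed signal of 16156 to 28585 in Vehicle and 24192 to 28664 in iMSBmal1KO. Their signal per 100 bp of region was 31.2, and it was 29.7 for the 1 of 2 Schwann cell markers in the table. It was 12.0 for 3 endothelial, 8.69 for 2 satellite cell, 7.89 for 2 fibro-adipogenic, 5.01 for 2 adipocyte and 4.23 for 3 leukocyte markers, and 4.10 for the 2 of 4 keratinocyte or neuron markers in the table. None of the markers in the table was at 0 and none passed the threshold. The part of cell makeup and of the mitochondrial share in the results that follow was not tested.

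The genes differed widely in where the open chromatin lay, and Usp2 had the highest signal per length averaged over all regions of its name. Per 100 bp of region, the mean deposited signal was 73.8 for Usp2 and between 19.2 (Btrc) and 29.3 (Csnk2a1) for the other 8 genes. This average depends on how many weak regions carry a gene's name. In start-labelled regions alone it was 155 for Gsk3b and 134 for Btrc, against 104 for Usp2. In Fbxl21, Csnk2a1 and Huwe1, 97.5%, 92.6% and 92.1% of the signal lay in regions that the table labels as transcription start. That share was 76.6% in Gsk3b, 70.4% in Usp2, 58.2% in Btrc, 57.4% in Csnk1d, 34.1% in Fbxw11 and 10.8% in Csnk1e. Csnk1e had its most open region at a transcript end (chromosome 15, 79417467 to 79417816), which alone held 31.8% of the gene's signal. In Fbxw11 the 3' UTR Exon label held 54.9%, but its 48 regions spread over 58.6 kb, and the 39 regions labelled 5' UTR Exon in Btrc spread over 92.1 kb, so these labels also cover sequence between exons. Among tested start regions of all genes, ordered by signal per 100 bp, the main start region of Gsk3b stood at the 98.8th percentile, that of Btrc at the 97.3rd, of Usp2 at the 97.2nd and of Fbxw11 at the 93.5th. Those of Csnk2a1, Csnk1d and Huwe1 stood at 89.3, 86.4 and 85.1, and those of Csnk1e and Fbxl21 at 73.8 and 73.3.

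**Figure D1:**
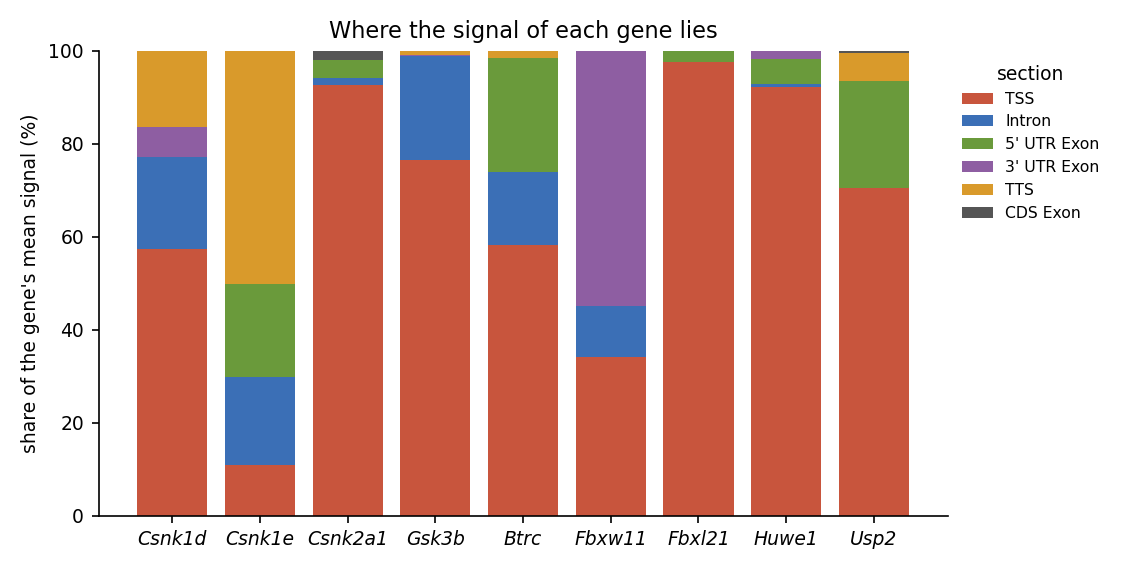
Share of each gene's mean signal over 8 libraries (vertical axis, percent) by the section label of the deposited table (colours). Start regions hold 97.5% of the signal of Fbxl21 and 10.8% of that of Csnk1e, where transcript ends hold 50.2%.

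The comparison of iMSBmal1KO with Vehicle asks whether the chromatin of these genes differs between tamoxifen-treated knockout and Vehicle samples. No region, gene sum or section of the 9 genes passed the threshold of an adjusted p of 0.05 (limma, Benjamini-Hochberg over all features tested). Among regions this was 0 of 137, where 0.0881% of all 124901 tested regions passed. At an unadjusted p under 0.05 there were 7 member regions (5.11%), 5 higher and 2 lower, against 9.22% of all regions, and limma-voom with quality weights also called 0, with 12 at an unadjusted p under 0.05. The smallest adjusted p of a member region was 0.443 in limma. In 5 member regions (3.65%), 4 higher and 1 lower, the groups did not overlap, against 5.48% of all regions. The median log2 difference, iMSBmal1KO minus Vehicle on the log2(signal + 1) scale, was 0.11 over the 137 member regions and 0.12 over all tested regions, and 40.9% and 38.0% of them were negative.

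**Figure D2:**
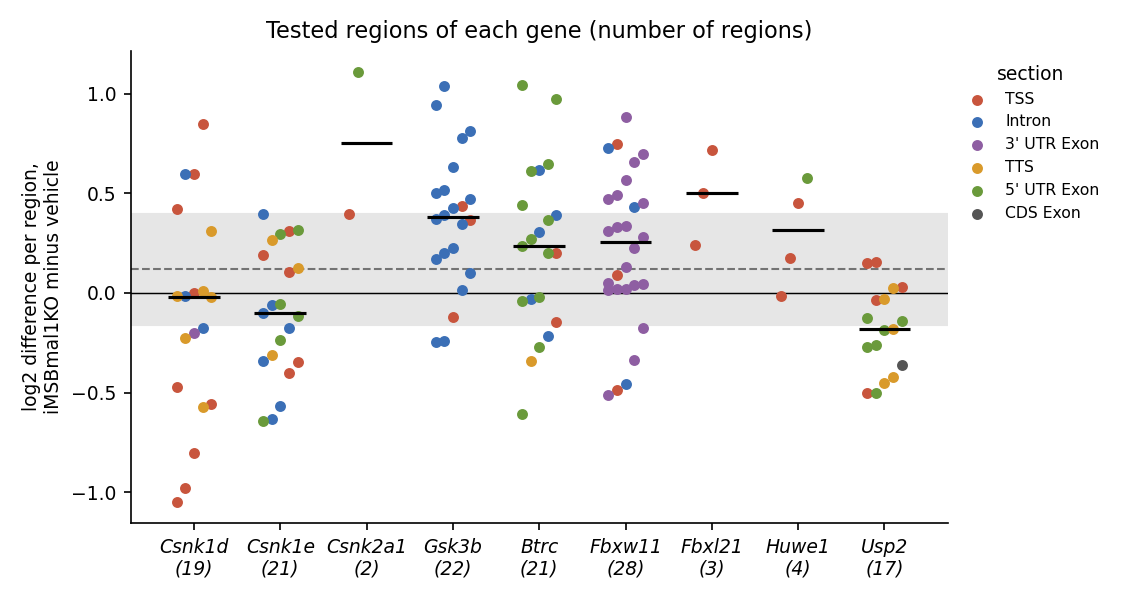
Log2 difference of each tested region (vertical axis, iMSBmal1KO minus Vehicle) by gene, with the number of tested regions under each name and the section label as colour. Black bars are the medians of each gene, the dashed line is the median of all tested regions (0.12) and the grey band their interquartile range. Gsk3b has 19 of 22 regions above 0, and Usp2 has 13 of 17 below 0.

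Summed over all regions of a gene, 0 of 9 genes passed, where 0.13% of all 22224 tested genes did. At an unadjusted p under 0.05 there was 1, Csnk2a1, against 9.48% of all genes. In no member did the sums of the groups separate, which they did in 4.94% of all genes. The log2 differences ran from -0.13 (Csnk1e) to 0.40 (Csnk2a1), 5 positive and 4 negative, around a median of 0.11 over all tested genes. limma-voom with quality weights also called 0 of the 9 genes, with 2 at an unadjusted p under 0.05. These were Usp2 (-0.25) and Csnk1e (-0.26), both lower, and Csnk2a1 was not among them.

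**Figure D3:**
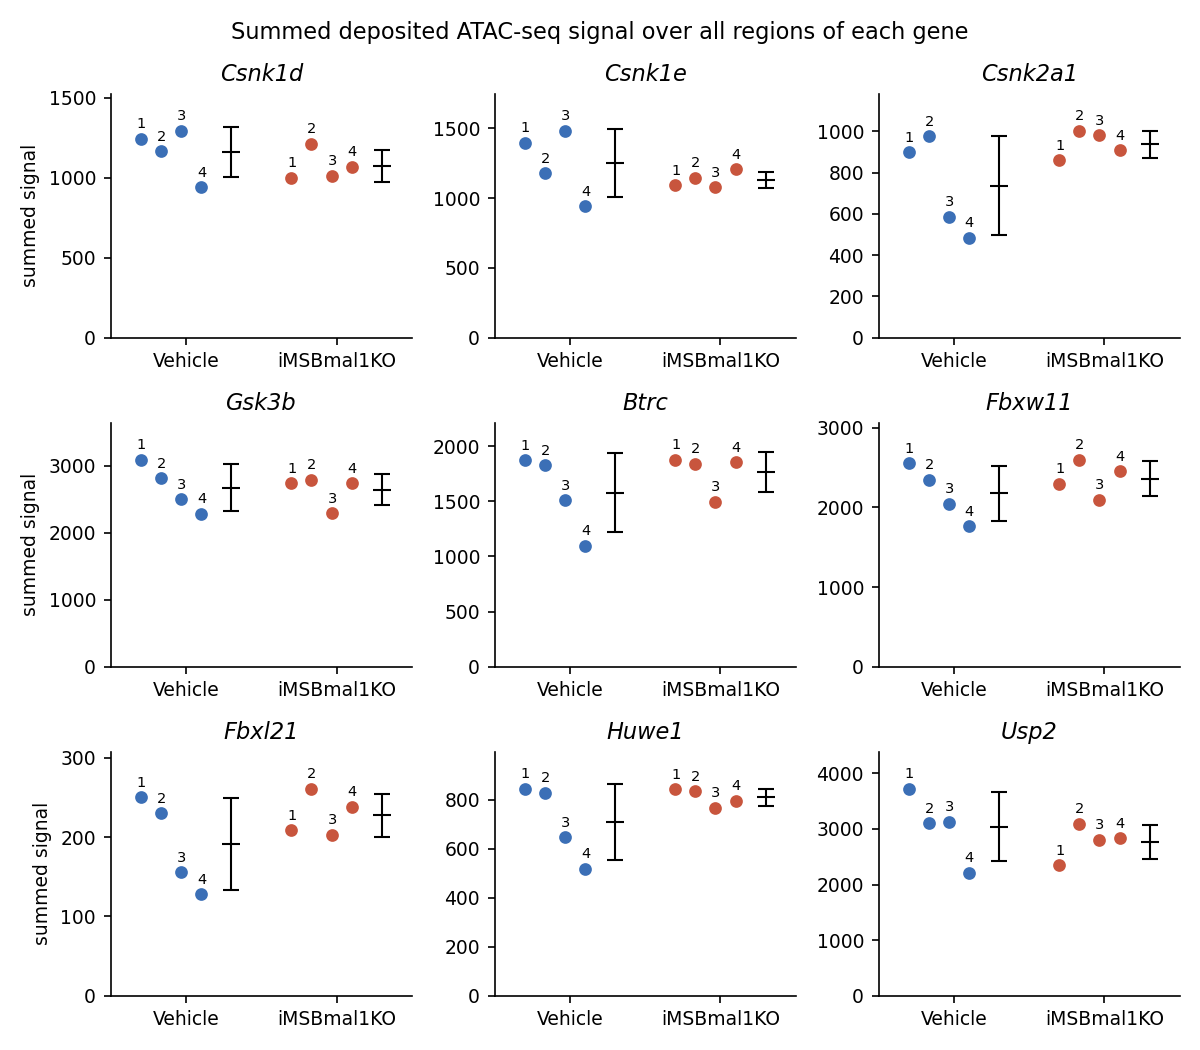
Summed deposited signal of each gene (vertical axes, from 0) in the 4 Vehicle (blue) and 4 iMSBmal1KO (red) libraries, numbered by replicate, with the mean and SD of each group beside the points. The groups overlap in all 9 genes, and Vehicle replicate 4 is the lowest library in each.

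**Figure D4:**
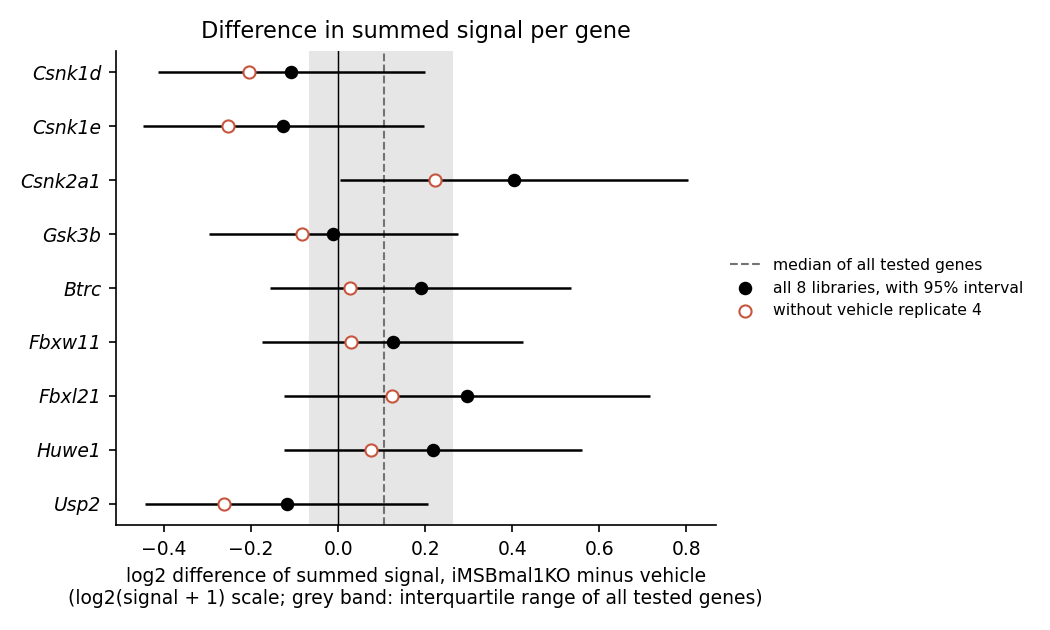
Log2 difference of summed signal (horizontal axis, iMSBmal1KO minus Vehicle) of each gene with its 95% interval (black) and its value without Vehicle replicate 4 (open red circles). The dashed line is the median of all tested genes (0.11) and the grey band their interquartile range. Without that library Csnk2a1 moves from 0.40 to 0.22, and Usp2 from -0.12 to -0.26.

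Csnk2a1, the catalytic subunit of casein kinase 2, had the largest difference of the 9 genes in size with all libraries in limma-trend. Without Vehicle replicate 4, Usp2 (-0.26) and Csnk1e (-0.25) exceeded it (0.22), and with limma-voom and quality weights Csnk1e (-0.26) and Usp2 (-0.25) did (0.23). In order of replicate, the summed signal was 899.6, 977, 587 and 485 for Vehicle, and 861, 1003, 981 and 907 for iMSBmal1KO. The iMSBmal1KO libraries were alike, while Vehicle replicates 3 and 4 were low and replicates 1 and 2 lay within the iMSBmal1KO range. The means were 737 ± 238 and 938 ± 65.6 (SD, n = 4 each), a log2 difference of 0.40 ± 0.19 (SE, 95% interval 0.00 to 0.80) with a limma p of 0.0483 and an adjusted p of 0.524. Vehicle replicates 3 and 4 are also the libraries with the highest mitochondrial shares, and the part of this in the difference was not tested. Without Vehicle replicate 3 the difference was 0.31. Of the gene's 14 regions 2 were tested, and 92.2% of its signal lay in the start region (chromosome 2, 152226474 to 152227316), where the means were 682 ± 231 and 862 ± 67.8 (SD, n = 4 each), a log2 difference of 0.40 with a limma adjusted p of 0.569, and 0.21 without Vehicle replicate 4. The other tested region, labelled 5' UTR Exon (152233034 to 152233198), held 7.18 ± 4.21 and 15.1 ± 3.24 (SD, n = 4 each), a log2 difference of 1.11 with a limma adjusted p of 0.508. At 1 to 34 reads a library its size is imprecise. The genes with the pattern most like that of Csnk2a1 over the 8 libraries, among 11111 genes compared, were Uqcrh (Pearson r of 0.994), 4833417C18Rik (0.993) and Ndufab1 (0.992), where the median r was 0.67. Their log2 differences were 0.32, 0.27 and 0.32, and each was also lowest in Vehicle replicates 3 and 4.

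Csnk1d, the gene of casein kinase 1 delta, had a sum of 1244, 1166, 1293 and 941 in the Vehicle libraries and of 1001, 1213, 1012 and 1068 in the iMSBmal1KO libraries. The groups overlapped, with means of 1161 ± 156 and 1073 ± 97.5 (SD, n = 4 each) and a log2 difference of -0.11 ± 0.15 (SE, limma adjusted p of 0.798), which was -0.20 without Vehicle replicate 4. Its main start region (chromosome 11, 120991063 to 120991601) had group means of 437 ± 61.0 and 438 ± 65.1 (SD, n = 4 each), and its log2 difference was -0.07 without Vehicle replicate 4. The smallest p of any member region fell just upstream of it, its middle at position -847 from the first listed start (120992090 to 120992266). That region held 61.8, 34.9, 59.7 and 56.3 in Vehicle and 27.4, 33.4, 35.8 and 22.6 in iMSBmal1KO. Vehicle replicate 2 lay within the iMSBmal1KO range, and the other Vehicle libraries lay above it. The log2 difference was -0.80 ± 0.28 (SE), with a limma p of 0.00885 and an adjusted p of 0.443, and the adjusted p was 0.187 to 0.807 over 17 other settings. Named after their values were seen, the other 3 tested regions between it and the main start region had log2 differences of -0.56, -1.05 and -0.47, at limma adjusted p-values of 0.67, 0.55 and 0.59, with 2 to 10 reads in the library that held fewest. The main start region and the upstream regions also overlap LOC115486436, a lncRNA gene in RefSeq, and ATAC-seq does not assign open DNA to a gene.

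Csnk1e, which encodes casein kinase 1 epsilon, summed to 1399, 1178, 1484 and 944 in Vehicle and to 1093, 1147, 1077 and 1208 in iMSBmal1KO. The Vehicle libraries spread on both sides of the iMSBmal1KO libraries. The means were 1251 ± 242 and 1131 ± 59.3 (SD, n = 4 each), a log2 difference of -0.13 ± 0.15 (SE, limma adjusted p of 0.771), which was -0.25 without Vehicle replicate 4. The transcript-end region with 31.8% of the gene's signal had 426 ± 136 and 331 ± 48.5 (SD, n = 4 each), a log2 difference of -0.31. Its most open start region (chromosome 15, 79442122 to 79442221) had 44.9 ± 11.9 and 56.0 ± 15.5 (SD, n = 4 each), a log2 difference of 0.31 (SE 0.28, limma adjusted p of 0.714), or 0.24 without Vehicle replicate 4. The smallest p of its 21 tested regions lay at 79440201 to 79440331, labelled 5' UTR Exon, with a log2 difference of -0.65 and a limma adjusted p of 0.549.

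Gsk3b, the gene of glycogen synthase kinase 3 beta, had the most open main start among the 9 genes. Its sum was 3086, 2807, 2496 and 2282 in Vehicle and 2739, 2787, 2293 and 2736 in iMSBmal1KO, and the iMSBmal1KO libraries lay inside the Vehicle range. The log2 difference was -0.01 ± 0.14 (SE, limma adjusted p of 0.982), with a 95% interval of -0.30 to 0.28, or 0.814 to 1.21-fold. Its main start region (chromosome 16, 38088509 to 38089536), which also overlaps the lncRNA gene BC031361, held 1984 ± 273 and 1820 ± 197 (SD, n = 4 each), a log2 difference of -0.12, or -0.18 without Vehicle replicate 4. Without that library the difference of the sum was -0.08. Of all 22 tested regions, the 3 labelled as start included, 19 had a positive difference, with a median of 0.38. Over all tested regions the median was 0.12 and 38.0% were negative, and 5 of the 22 lay below that median. These regions share the same libraries and are not separate samples. The region with the smallest p, in intron 4 (38185776 to 38185916), held 11.9 ± 3.16 and 21.6 ± 4.62 (SD, n = 4 each), a log2 difference of 0.81 with a limma adjusted p of 0.501. Vehicle replicate 2, at 16.4, lay within the iMSBmal1KO range of 16.3 to 25.9 there, and the libraries held 3 to 45 reads.

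Among the ligase genes, Btrc and Fbxw11 encode the pair of beta-TrCP proteins. Btrc summed to 1871, 1828, 1508 and 1097 in Vehicle and to 1876, 1841, 1496 and 1854 in iMSBmal1KO. Apart from the low Vehicle replicate 4 the groups covered the same range, and the log2 difference of 0.19 ± 0.17 (SE, limma adjusted p of 0.673) was 0.03 without that library. The main Btrc start (chromosome 19, 45363442 to 45364080) held 901 ± 239 and 1009.7 ± 104 (SD, n = 4 each), a log2 difference of 0.20, which was 0.01 without Vehicle replicate 4. The region of Btrc with the smallest p, labelled 5' UTR Exon and 54092 bp from the first start (45417738 to 45417913), held 12.8, 16.4, 12.7 and 6.25 in Vehicle and 32.1, 23.4, 16.7 and 23.8 in iMSBmal1KO. All iMSBmal1KO libraries lay above all Vehicle libraries, the nearest by less than 1 read, and the log2 difference was 0.97 ± 0.35 (SE, limma p of 0.0115, adjusted p of 0.465). Another weak region under the same label, named after its values were seen, separated the other way (45454529 to 45454712, 12.5 ± 1.32 and 7.91 ± 1.68, SD, n = 4 each, a log2 difference of -0.61, limma adjusted p of 0.628).

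Fbxw11 summed to 2555, 2348, 2044 and 1767 in Vehicle and to 2299, 2597, 2096 and 2452 in iMSBmal1KO, with overlapping groups. Its log2 difference of 0.13 ± 0.14 (SE, limma adjusted p of 0.756) was 0.03 without Vehicle replicate 4. Its main start (chromosome 11, 32642267 to 32642885) held 679 ± 119 and 719 ± 87.8 (SD, n = 4 each), a log2 difference of 0.09, or 0.06 without Vehicle replicate 4. Of all 124901 tested regions, 4518 lay higher in iMSBmal1KO without overlap. Fbxw11, which had the most tested regions of the 9 genes, 28, held 3 of the 4 such member regions. That with the smallest p was in intron 1, 322 bp from the first start (32643107 to 32643287), with 66.1, 64.7, 68.0 and 21.9 in Vehicle and 77.0, 96.2, 69.2 and 97.8 in iMSBmal1KO. The gap between the groups was narrow, from 68.0 to 69.2, and Vehicle replicate 4 stood apart on 7 reads. The log2 difference was 0.73 ± 0.32 (SE, limma adjusted p of 0.518) and 0.34 without that library. The other 2, named after their values were seen, lay in intron 9 (32736548 to 32736732, 113 ± 18.5 and 152 ± 15.1, SD, n = 4 each) and under the 3' UTR Exon label (32667114 to 32667325, 73.6 ± 9.41 and 92.5 ± 5.97, SD, n = 4 each), with log2 differences of 0.43 and 0.33 and limma adjusted p-values of 0.549 and 0.627.

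Fbxl21, whose product stabilises or degrades CRY proteins depending on the compartment, had 7 regions. Their sum was 250.5, 230.1, 156 and 128 in Vehicle and 208, 261, 203 and 238 in iMSBmal1KO. Vehicle replicates 3 and 4 lay below all iMSBmal1KO libraries and the other Vehicle libraries within their range. The log2 difference was 0.30 ± 0.20 (SE, 95% interval -0.12 to 0.72, limma adjusted p of 0.609), and 0.12 without Vehicle replicate 4. Nearly all of this signal lay at the start, where the main region (chromosome 13, 56522406 to 56522718) held 145 ± 35.1 and 168 ± 15.8 (SD, n = 4 each), a log2 difference of 0.24, or 0.14 without Vehicle replicate 4. The neighbouring start region with the gene's smallest p (56522323 to 56522403) had a log2 difference of 0.72, a limma adjusted p of 0.661, and a value of 0.11 without Vehicle replicate 4, which held 2 reads there.

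Huwe1 lies on chromosome X. The sum over its 16 regions was 845, 829, 647 and 519 in Vehicle and 844, 835, 768 and 797 in iMSBmal1KO, so that Vehicle replicates 3 and 4 were again low and the other Vehicle libraries lay within or just above the iMSBmal1KO range. This gave a log2 difference of 0.22 ± 0.16 (SE, limma adjusted p of 0.636), and of 0.08 without Vehicle replicate 4. That library had 0.912% of its signal in the deposited regions on chromosome X, against 1.05% to 1.21% in the others. Mitochondrial signal counts in that total and made up 16.5% of it in this library. These values therefore do not compare the share of chromosome X among nuclear reads. Its main start (151803034 to 151803780) held 547 ± 130 and 605 ± 27.6 (SD, n = 4 each), a log2 difference of 0.17, which was 0.03 without Vehicle replicate 4. The 4 Huwe1 regions labelled 5' UTR Exon, over 16.0 kb, together held 36.2, 37.0, 30.5 and 28.1 in Vehicle and 49.7, 49.3, 48.9 and 46.4 in iMSBmal1KO. The groups did not overlap, with a log2 difference of 0.55 ± 0.23 (SE), a limma p of 0.0237 and an adjusted p of 0.474. Of these regions 1 was tested by itself (151827509 to 151827914), with 14.7 ± 3.35 and 22.1 ± 3.21 (SD, n = 4 each), a log2 difference of 0.57 and a limma adjusted p of 0.571.

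By section, 0 of 36 tested sums of a member gene and section label passed the threshold, where 0.148% of all 51322 such sums did. Of the 36, 4 had an unadjusted p under 0.05, all higher in iMSBmal1KO, against 9.84% of all, and limma-voom with quality weights called 0, with 2 at an unadjusted p under 0.05. The 4 were the 5' UTR Exon label of Huwe1, the same label in Csnk2a1 (25.1 ± 5.60 and 38.8 ± 6.38, SD, n = 4 each, a log2 difference of 0.62), and introns 1 and 9 of Fbxw11 (log2 differences of 0.56 and 0.41). The groups did not overlap in 2 of the 36, those of Huwe1 and Csnk2a1, against 5.3% of all. These sections are weakly open, at 4.47 and 3.67 signal units per 100 bp against 26.1 and 29.3 for the whole genes.

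Usp2 had the highest signal per length of the members over all named regions, though not in start regions alone, and its regions leaned most to lower values. The sum of its 23 regions was 3723, 3108, 3132 and 2211 in Vehicle and 2349.8, 3091, 2806 and 2838 in iMSBmal1KO. Vehicle replicate 4 was the lowest of all 8 libraries. The other 3 Vehicle libraries lay above all iMSBmal1KO libraries, the nearest narrowly, at 3108 against 3091. With all libraries the log2 difference was -0.12 ± 0.16 (SE, 95% interval -0.44 to 0.21, limma adjusted p of 0.789). Without Vehicle replicate 4 it was -0.26, with a limma p of 0.0327 and an adjusted p of 0.715. Leaving out Vehicle replicate 1, the highest library, gave -0.01, and leaving out iMSBmal1KO replicate 1 gave -0.04, so the size depends on single libraries. Of its 17 tested regions 13 had a negative difference and 15 lay below the median of all regions. The median was -0.18. The counts for Csnk1d, 13 of 19 negative, and for Csnk1e, 13 of 21, were similar, while Fbxw11 had 5 of 28 and Btrc 8 of 21.

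Usp2 has several tested starts, none of which passed the threshold, and differences between them were not tested. The most open start (chromosome 9, 44066841 to 44067427) held 1109, 926, 841 and 666 in Vehicle and 845, 927, 765 and 872 in iMSBmal1KO, a log2 difference of -0.03 ± 0.18 (SE, limma adjusted p of 0.960), or -0.16 without Vehicle replicate 4. This region and the next are among 14 Usp2 regions, 10 of them tested, that also overlap Gm39325, a lncRNA gene in RefSeq. The start at which the printed promoter ends lies in the region at 44084755 to 44085055, which held 394 ± 103 and 396 ± 80.1 (SD, n = 4 each), a log2 difference of 0.03. About 1 kb further, the start region at 44085892 to 44086500 had the smallest p of the gene. It held 653, 587, 598 and 435 in Vehicle and 239.7, 447, 452 and 506 in iMSBmal1KO. Vehicle replicate 4 lay inside the iMSBmal1KO range and iMSBmal1KO replicate 1 far below the rest of its group. The log2 difference was -0.50 ± 0.23 (SE, limma p of 0.0367, adjusted p of 0.528), and -0.26 without iMSBmal1KO replicate 1, the deepest library.

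A large part of the open chromatin inside Usp2 carries another gene's name in the table. Between the first start and the last end of its listed transcripts lay 37 regions, of which 14 were named Gm49380, Gm39325 or Rnf26, and these held 42.5% of the signal. They are outside the member list, and were examined after their values were seen. The region with the highest signal inside the gene was one of them (44087816 to 44088408, named Gm49380), with 1187, 856, 897 and 850.5 in Vehicle and 713, 966, 992 and 1009.8 in iMSBmal1KO. The groups overlapped there, with a log2 difference of -0.04 and a limma adjusted p of 0.950. A further one (44078988 to 44079360, Gm49380) held 718 ± 271 and 677 ± 104 (SD, n = 4 each), a log2 difference of 0.01. With all regions inside the transcripts summed whatever their name, Usp2 had a log2 difference of -0.11 (limma adjusted p of 0.810), against -0.12 for its named regions. In Csnk1d 5 regions named Gm28192 held 17.9% of the signal by position, and the other 7 genes had under 1% of theirs under other names. No gene of the 9 passed when summed by position. Sums by position count only regions whose middle lies inside the transcripts, so named regions outside them drop out. The main start regions of Csnk1d and Fbxw11 are left out, with middles at -1 and -299 from the first listed start. So is the transcript-end region with 31.8% of the signal of Csnk1e, whose log2 difference was -0.02 by position and -0.13 by name. In Vehicle replicate 1 the sum of Csnk1d was 774 by position and 1244 by name. That of Fbxw11 was 1717 and 2555, and that of Csnk1e 839 and 1399.

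**Figure D5:**
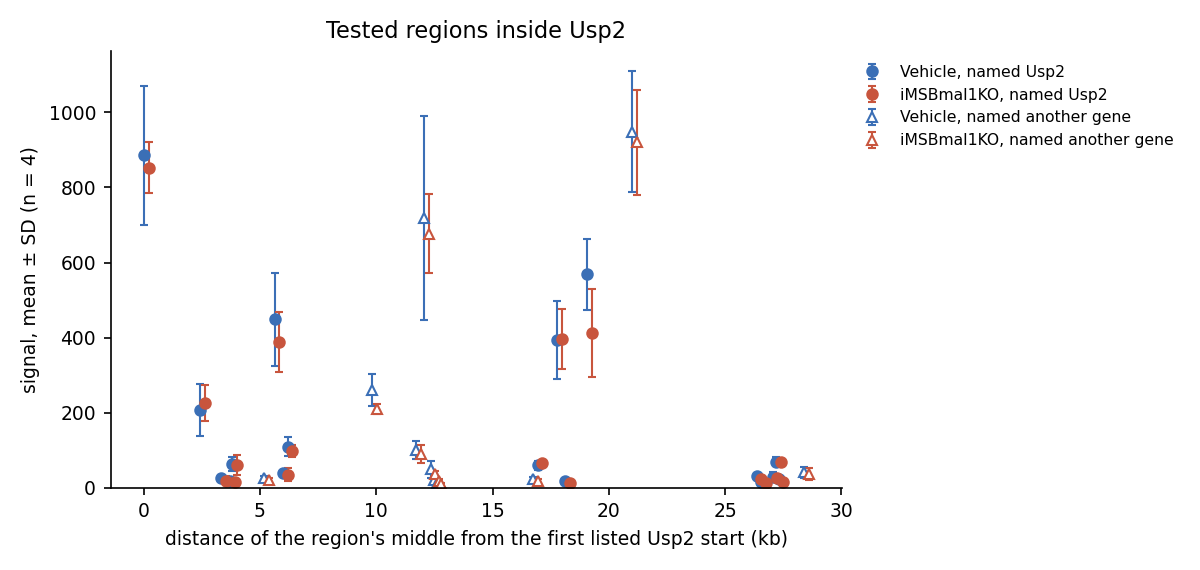
Mean signal (vertical axis, error bars SD, n = 4) of each tested region inside Usp2 against the distance of its middle from the first listed start (horizontal axis, kb), for Vehicle (blue) and iMSBmal1KO (red). Filled circles carry the name Usp2 and open triangles another gene's name. The means differ most at the start region 19.2 kb in, 568 against 411, while the largest region, 21.1 kb in, is named Gm49380 and holds 948 and 920.2.

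Among other modifiers of clock proteins no change was called. The list held 24 names of kinases, phosphatases, ligases, their scaffold subunits and deubiquitinases. Skp1a and Skp1 among them name the same gene, which the table lists as Skp1a. Of the 24 names, 21 had regions in the table, 419 in all, of which 149 were tested. None of these regions and none of the 20 tested gene sums passed the threshold in limma, with 12 regions (10 higher, 2 lower) and 1 gene sum (Cul1, named after its value was seen, 0.38) at an unadjusted p under 0.05. These are 8.05% of the regions and 5.0% of the gene sums of the list, against 9.22% and 9.48% of all tested. limma-voom with quality weights also called none, with 10 regions and 0 gene sums at that level. The gene sums had a median log2 difference of 0.18, against 0.11 over all genes. Of the 20, 10.0% were negative and 85.0% were lowest in Vehicle replicate 4, against 33.4% and 44.5% of all tested genes. Close relatives of the 9 genes were Csnk1a1 (casein kinase 1 alpha) at 0.23, Csnk2a2 (the second catalytic subunit of casein kinase 2) at 0.18 and Gsk3a at 0.15, and their limma adjusted p-values ran from 0.659 (Csnk1a1) to 0.742 (Gsk3a). Csnk2b, the regulatory subunit of casein kinase 2, had a single region, too weak to be tested.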

How the data were processed

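The authors deposited a table of 489637 regions with a signal per library and gene annotation, from 4 Vehicle and 4 iMSBmal1KO samples. The submitters' processing notes name Partek, Bowtie2, MACS2 and DESeq2, and the builds mm10 and GRCm39, without roles. Listed transcripts of all 9 genes overlap their GRCm38.p6 RefSeq positions, and coordinates are given on that build as the table lists them. In each library 98.3% to 99.8% of non-zero values of the deposited signal were whole multiples of 1 step (tolerance 0.02 reads). Dividing by it gave read equivalents, which served for depth and the filter only.

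limma-trend 3.58.1 (R 4.3.3, robust) was fitted to log2(signal + 1) over all 8 libraries, group as the only term, for regions, gene sums, and sums by gene and section, with Benjamini-Hochberg adjustment over all tested features and a threshold of 0.05. Features needed 0.762 read equivalents per M in 4 libraries and 15 reads in all. The fit was tested on simulated data. Named were all members, the most open start region and the smallest-p region of each, and 3 genes most like the member with the smallest p. A gene of the list of other modifiers, counted in its totals, is not reported here by itself. The members and lists were chosen with earlier results of these data known. Alternatives were other scalings, pseudocounts, filters, thresholds, limma-voom with quality weights, a replicate block and leaving out each library. P-values measure the spread between these samples, which may be technical. Reads carry no molecular identifiers, so counts overstate precision.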

Additional observations from a re-analysis of the deposited data

Results flagged for a closer look

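Of 54 group values of the 9 genes, 3 had a library farther from its group than Dixon's 95% limit for 4 samples, and chance gives about 1 in 20. The summed signal of Gsk3b was 2293 in iMSBmal1KO replicate 3, against 2736 to 2787 in the other iMSBmal1KO libraries, so the gap took up 0.896 of the range. Btrc showed the same library low, at 1496 against 1841 to 1876 (0.908 of the range). In the Fbxw11 intron 1 region (chromosome 11, 32643107 to 32643287), Vehicle replicate 4 held 21.9 against 64.7 to 68.0 (0.929 of the range), on 7 reads.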

How the results depend on the processing

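The number of member regions, gene sums and section sums past the threshold was 0 under every alternative run. For the other modifiers, regions and gene sums were recomputed under the same scalings, filters, pseudocounts, block and left-out libraries, with 0 past the threshold, but not at other thresholds, by position or by section. The smallest adjusted p of a member came without Vehicle replicate 2: 0.187 for regions, 0.145 for gene sums and 0.203 for section sums. Some small differences changed sign. The Fbxw11 gene sum was -0.0031 with TMM scaling, and its main start region -0.036 with TMM and -0.022 with loess scaling. The Csnk1d sum was 0.0048 with regions summed by position, an alternative chosen after seeing the data. That sum leaves out the main start region of Csnk1d. Leaving out 1 library at a time, the main start regions ranged from -0.0085 to 0.187 (Fbxw11), -0.089 to 0.081 (Csnk1d) and -0.163 to 0.082 (Usp2), and the Gsk3b sum from -0.083 to 0.062; the cause was not tested. TMM moved the median over all genes from 0.11 to -0.02, and of the 9 gene sums only that of Fbxw11 changed sign with it. With TMM the smallest limma adjusted p of the 9 gene sums was that of Csnk1d (0.410, lower), against 0.512 for Csnk2a1 (higher). With loess scaling these were 0.421 and 0.455. Calls over all features moved more, from 110 regions to between 32 (without Vehicle replicate 1) and 363 (limma-voom with quality weights), from 29 gene sums to between 7 (without iMSBmal1KO replicate 2) and 177 (limma-voom), and from 76 section sums to between 27 (without Vehicle replicate 1) and 325 (limma-voom). Same-numbered libraries deviated together at r of -0.06, 0.14, 0.02 and 0.02 across regions, within the -0.19 to 0.25 of all pairs of a Vehicle and an iMSBmal1KO library. These values do not settle whether replicate numbers pair the samples. The replicate block gave 0 calls among members, while calls over all gene sums went from 29 to 116. The planned edgeR and DESeq2 fits on recovered reads were not run, because some values are not whole multiples of the step. Depth limits weak regions most: the median tested region held 6 reads in Vehicle replicate 4 and 51.0 in iMSBmal1KO replicate 1, and the stricter filter of 20 reads left 73 member regions.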
